A study of Mus musculus with 12 samples.

Results

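Villus tip enterocytes with Nt5e were described here, the absorptive cells at the upper end of the small intestinal villus that carry transcripts of Nt5e. They were chosen by a rule. Among the cells with an Nt5e value above 0, each cell was scored by the mean of log1p(10000 × value / cell total) over Nt5e, Ada, Slc28a2, Clca4a, Enpp3 and Ly6m, and the 800 highest-scoring cells were taken. These 800 cells were 2.87% of the 27881 cells of the table, a share that the choice of 800 sets, and 1548 cells (5.55%) had an Nt5e value above 0 at all. The levels of the 6 scoring genes chose the cells, so they are given below as a description.

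The cells came from the 8 diet samples of a series of 12 mouse small intestine samples. All were adult mice of the strain Lgr5DTR-GFP, which carries a diphtheria toxin receptor and green fluorescent protein reporter at the stem cell gene Lgr5; the labels name neither a toxin treatment nor the diet of any sample. The intestine was divided into 30 pieces, the cells of each piece were tagged, and epithelial cells (CD45-, EpCAM+) were sorted and read as 3′ single-cell transcriptomes. Not analysed here were 2 samples of total epithelium and 2 of progenitor cells. Cell barcodes ended in 1 of 8 numbers that could not be matched to sample titles, so the table was treated as 1 pooled sample. No test was run, because the cells were chosen by values of the same cells and nothing says that the sets were separate animals, and the 8 barcode sets are given by their lowest, median and highest values.

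Enterocytes are born in the crypt, migrate up the villus and are shed at its tip, and they change their gene programme on the way. At the tip in mice they carry CD73, the enzyme encoded by Nt5e that splits extracellular AMP into adenosine. Adenosine deaminase (Ada) turns adenosine into inosine, and the concentrative transporter CNT2 (Slc28a2) takes up purine nucleosides from the lumen.

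Levels are given in ppm, the part a gene took of the summed values of all genes in a group of cells. The villus tip cells were compared with 16479 enterocytes with an Nt5e value of 0 (Fabp2 and Apoa1 above 0), called Nt5e-0 enterocytes, and with the 7791 of these that had at least 8 of 10 mature enterocyte genes above 0, called mature Nt5e-0 enterocytes. Differences are log2 differences of ppm plus 1, villus tip cells minus the other cells. A gene was called higher or lower where the mean of both groups was at least 10 ppm, the difference was at least 1 on the log2 scale, and the direction was the same in the 7 barcode sets with at least 20 cells in each group. This rule describes size and stability over sets and is no test. The 10 mature enterocyte genes, among them Alpi, Sis, Slc15a1, Apoa4 and Apob, chose the mature cells and could not be called against them.

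Villus tip cells made up between 0.393% and 6.92% of the cells of a barcode set, with a median of 3.06%. Set 6 held 203 of the 800 cells, set 1 held 167 and set 8 held 145, whereas set 2 held 18 and set 7 held 32. Of the enterocytes of a set, villus tip cells made up between 1.02% and 8.53%, with a median of 4.13%. The 2 sets poor in these cells by the first share, 2 and 7, were also the lowest by the second. The sets cannot be assigned to diets.

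**Figure D1:**
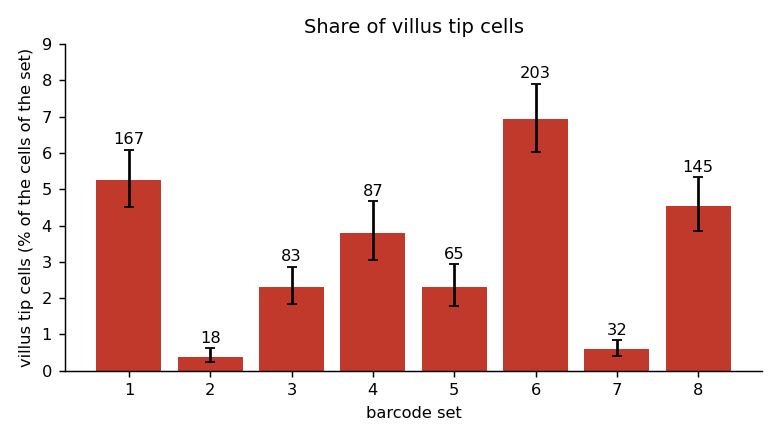
Share of villus tip cells in each of the 8 barcode sets, as a percentage of the cells of the set (y axis, starting at 0). Bars are shares, whiskers are exact binomial 95% intervals (counting error only) and the numbers above are cells; the shares run from 0.393% in set 2 to 6.92% in set 6.

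The score ended in a slope and not in a gap. The highest cell scored 4.39, the median villus tip cell 2.89 and the last cell taken 1.94, against 1.93 for the first cell left out and a median of 0.376 over the Nt5e-positive cells left out. Within 0.1 of the last score there were 37 cells inside and 27 outside. All 6 scoring genes were above 0 in 441 villus tip cells, 5 in 302 and 4 in 57. Fabp2 and Apoa1, which define enterocytes, were both above 0 in 798 of the 800 cells. Barcodes that occur in more than 1 set involved 157 cells of the table and 6 villus tip cells.

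Ada had 1981, 3312 and 4457 ppm in villus tip cells (lowest, median and highest of the 8 sets), against 23.0, 113 and 211 ppm in Nt5e-0 enterocytes. Slc28a2 had 2982, 3517 and 4154 ppm in villus tip cells, against 32.8, 138 and 230.4 ppm in Nt5e-0 enterocytes. For both genes every set of villus tip cells lay above every set of Nt5e-0 enterocytes, and since these genes chose the cells nothing is read from that. Over all 7987 genes at the minimum level, all sets of villus tip cells lay above all sets of Nt5e-0 enterocytes for 498 (6.24%) and below for 1497 (18.7%). Clca4a, a member of the calcium-activated chloride channel regulator family, had 5366, 6510.2 and 8419 ppm in villus tip cells, against 100.4, 436 and 756 ppm in Nt5e-0 enterocytes. Ly6m, a member of the Ly6 family of small surface proteins, had 1886, 2088 and 3358 ppm in villus tip cells, against 21.6, 73.9 and 192 ppm in Nt5e-0 enterocytes. These 2 genes likewise did not overlap between the groups. Enpp3, an ectoenzyme that cleaves extracellular nucleotides, had 180.1, 793 and 1442 ppm in villus tip cells, against 13.3, 84.8 and 239 ppm in Nt5e-0 enterocytes, and here the lowest set of villus tip cells fell inside the range of the other cells. Nt5e itself had 1199, 1559 and 1966 ppm in villus tip cells and was 0 in Nt5e-0 enterocytes by the rule.

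To describe how far each difference rested on the gene's own part in the score, 800 cells were also taken by the score over the other 5 genes. For Nt5e the filter on Nt5e was dropped too, and 529 of the 800 cells were again villus tip cells. Nt5e was then above 0 in 66.1% of the chosen cells and in 4.99% of the remaining enterocytes, at 1339 and 27.7 ppm, a log2 difference of 5.55. In cycling cells, crypt cells that should lack Nt5e, 1.63% had an Nt5e value, with a median of 2803.5 detected genes per cell against 1526.5 in villus tip cells. For the other genes the filter on Nt5e and the Nt5e-0 enterocytes were kept. Of the 800 cells, 771 were again villus tip cells for Ada, 761 for Slc28a2, 781 for Clca4a, 774 for Enpp3 and 767 for Ly6m. The differences were 5.04 for Ada, 4.78 for Slc28a2, 3.98 for Clca4a, 3.19 for Enpp3 and 4.86 for Ly6m. Each of the 6 differences was above 0 in all 8 sets. All of these values come from the same libraries and largely the same cells. The 6 genes were chosen with earlier results of these data known, so the values are a description.

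**Figure D2:**
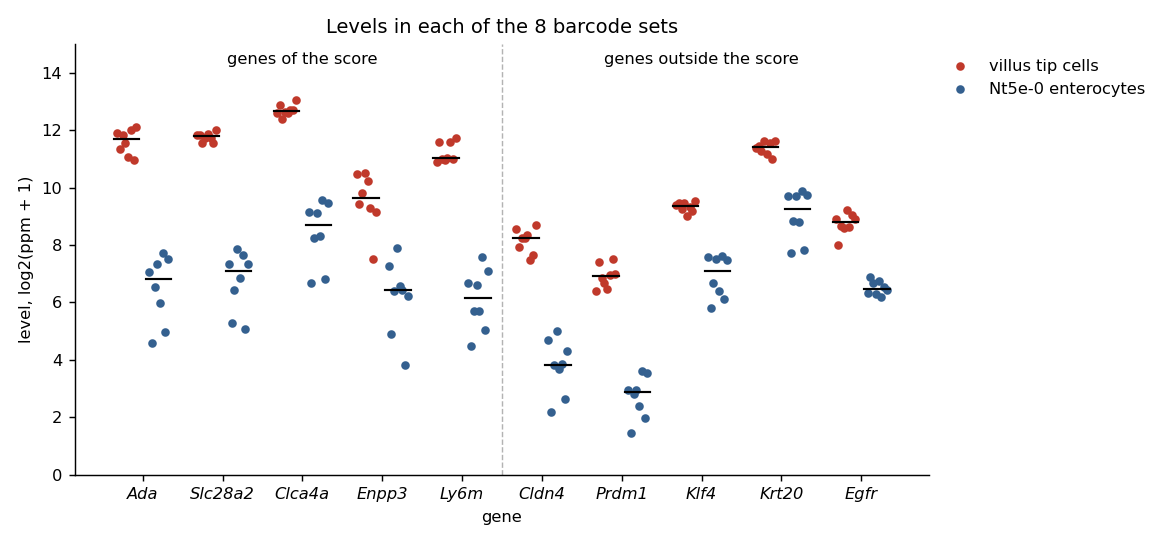
Levels, as log2(ppm + 1), of 5 scoring genes and 5 genes outside the score in villus tip cells (left of each pair) and Nt5e-0 enterocytes (right). Each point is 1 of 8 barcode sets and each line the median of the sets; the scoring genes chose the cells, and the 5 others were picked as genes with large differences, so the lack of overlap in 9 of these 10 pairs is a description.

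In the GRCm38 annotation the scoring genes lie on different chromosomes, apart from Ada (chr2:163726584-163750239, minus strand) and Slc28a2 (chr2:122426477-122461137, plus strand). Nt5e is at chr9:88327197-88372092 (plus strand), Clca4a at chr3:144952480-144975045 (minus strand) and Enpp3 at chr10:24772406-24842823 (minus strand). All are protein coding. Ly6m is at chr15:74878336-74881704 in the RefSeq table of the same build. Clca4a has a close relative in Clca4b and Slc28a2 in Gm14085, and no source used here says how reads were divided between near copies. Clca4b was 1658 ppm in villus tip cells and 584 ppm in Nt5e-0 enterocytes (log2 difference 1.5, higher by the rule, but 0.50 and 0.57 and not called with Nt5e-0 enterocytes matched on detected genes or on regional score). Gm14085 was 1.25 ppm in villus tip cells and 0.0652 ppm in Nt5e-0 enterocytes, below the minimum level.

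The 250 bases before the start in the RefSeq promoter table (GRCm38.p6) are shown for Ada, of the adenosine route, and for Cldn4 and Prdm1, the genes outside the score that differ most in their lists (values below). They run 5′ to 3′ on the strand of the gene, with capitals marking every match on either strand to 3 motifs of factor families discussed below, AP-1 (TGANTCA), KLF (CACCC) and HNF4 (CAAAGTCCA). In Cldn4 a KLF and an AP-1 match overlap. The windows are chr2:163750240-163750489 (minus) for Ada, chr5:134946935-134947184 (minus) for Cldn4 and chr10:44458749-44458998 (minus) for Prdm1. The Prdm1 window lies inside the longer span of that gene in the GRCm38 annotation (chr10:44437177-44528501), which has a start farther upstream. The windows of Nt5e and Enpp3 also lie inside the span of their gene in that annotation, and the Slc28a2 window reaches into its RefSeq span. These windows are not shown. Nt5e held 4 KLF matches, Slc28a2 held 1, Enpp3 held 0, and none held AP-1 or HNF4 letters.
Ada: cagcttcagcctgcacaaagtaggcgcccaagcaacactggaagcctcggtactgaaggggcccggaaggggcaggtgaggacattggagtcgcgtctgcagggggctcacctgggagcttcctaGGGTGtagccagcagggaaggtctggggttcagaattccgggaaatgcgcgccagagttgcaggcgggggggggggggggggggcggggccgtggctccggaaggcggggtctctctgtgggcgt
Cldn4: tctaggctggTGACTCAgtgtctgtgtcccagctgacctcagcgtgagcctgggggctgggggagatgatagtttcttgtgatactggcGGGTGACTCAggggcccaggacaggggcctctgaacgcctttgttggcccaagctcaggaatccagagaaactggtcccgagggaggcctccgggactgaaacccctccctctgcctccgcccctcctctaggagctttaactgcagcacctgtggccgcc
Prdm1: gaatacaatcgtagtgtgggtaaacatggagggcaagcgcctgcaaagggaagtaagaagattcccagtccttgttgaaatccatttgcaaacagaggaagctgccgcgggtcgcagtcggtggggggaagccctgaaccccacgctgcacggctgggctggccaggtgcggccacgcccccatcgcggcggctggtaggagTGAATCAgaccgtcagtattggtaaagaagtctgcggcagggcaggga
The Ada window held 1 KLF match, the Cldn4 window 2 AP-1 matches and 1 KLF match, and the Prdm1 window 1 AP-1 match. None of these 3 windows held the HNF4 letters. AP-1 letters occur in 6.87% of the 27025 promoters of the table, KLF letters in 51.3% and HNF4 letters in 0.381%. A promoter was found for 484 of the 630 genes called higher against the Nt5e-0 enterocytes (below), and 8.68% of these held AP-1 letters, 61.2% KLF letters and 0.413% HNF4 letters. Over the 6368 genes with a promoter that reached the minimum level, the shares were 4.48%, 56.5% and 0.408%. A match is a run of letters and not a shown binding site.

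Against the Nt5e-0 enterocytes, 630 of 7987 genes at the minimum level were higher in villus tip cells (7.89%) and 2494 were lower (31.2%). The median difference of all genes was -0.65, so list medians are set beside that value. List counts are likewise to be read beside the shares of 7.89% higher and 31.2% lower. Centred on it, 1308 genes were higher and 860 lower, and the share of higher among the called genes became 60.3% in place of 20.2%. Against the mature Nt5e-0 enterocytes, 473 of 7477 genes were higher (6.33%) and 1622 lower (21.7%), with a median of -0.43. The gene numbers per cell went with this: villus tip cells had a median of 1526.5 detected genes, against 1832 in Nt5e-0 and 1995 in mature Nt5e-0 enterocytes, with mitochondrial shares of 5.91%, against 8.56% and 8.31%. With Nt5e-0 enterocytes matched on detected genes, 350 genes were higher and 972 lower, of which 336 and 936 were called in the same direction without matching. Of 262 called genes from the lists and the leading genes, 136 were still called after this matching and 160 after matching on the regional score described below. The genes described below that lost a call in this way are given at the end of their paragraph or beside the gene, with the matched difference.

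Genes known from the villus tip outside the score were mostly higher. Of 10 such genes at the minimum level, 8 were higher and 0 lower, with a median of 1.68. Klf4, a transcription factor of differentiated epithelium, had 518, 654 and 733 ppm in villus tip cells, against 55.6, 139.8 and 198 ppm in Nt5e-0 enterocytes (log2 difference 2.32). Egfr, the epidermal growth factor receptor, had 258, 442 and 589 ppm in villus tip cells, against 72.4, 88.4 and 118 ppm in Nt5e-0 enterocytes (2.28). Neither gene overlapped between the groups of sets. The apolipoprotein gene Apoa4 had 9343, 15176 and 21453 ppm in villus tip cells, against 778, 2892 and 4915 ppm in Nt5e-0 enterocytes (2.75), and Creb3l3, a regulator of apolipoprotein genes, differed by 1.97. Fos, Junb, Apoc3 and Cdh1 were higher by 1.69, 1.59, 1.67 and 1.12. Jund (0.63) and Pck1 (-0.73) were not called. Against the mature Nt5e-0 enterocytes, 6 of 9 were higher and Pck1 alone was lower (-1.55). Junb was not called after matching on detected genes (0.90) or on regional score (0.97), nor Cdh1 after matching on detected genes (0.81).

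Genes known from the villus bottom were lower in every case that reached the minimum level, 10 of 10, with a median of -1.57. Reg3b, which encodes an antimicrobial lectin, had 232, 653 and 1852 ppm in villus tip cells, against 861, 2158 and 7629 ppm in Nt5e-0 enterocytes (log2 difference -1.58). The ranges overlap, although the direction was the same in all 8 sets. Reg1 (-2.82, but -0.39 and not called with Nt5e-0 enterocytes matched on regional score), the cytokine gene Il18 (-2.68), the gasdermin gene Gsdmc4 (-2.48), the innate immune receptor gene Nlrp6 (-1.80) and Reg3g (-1.05) were also lower. Gsdmc4 was not called after matching on detected genes (-1.31). In the comparison with mature Nt5e-0 enterocytes 8 of 9 were lower, with a median of -1.85.

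The other genes of purine and pyrimidine handling were called in both directions. Of 23 at the minimum level, 3 were higher and 6 lower, with a median of -0.36, against -0.65 for all genes. Over all genes 7.89% were higher and 31.2% lower, so the counts of this list are near that background. Without set 1, 7 or 8 the median was between -0.57 and -0.56. Entpd8, an ectoenzyme that removes phosphates from extracellular ATP, had 241, 285 and 317 ppm in villus tip cells, against 25.9, 64.7 and 83.6 ppm in Nt5e-0 enterocytes (log2 difference 2.17). Nt5c2, a cytosolic nucleotidase, had 64.4, 116 and 173 ppm in villus tip cells, against 17.7, 23.3 and 26.6 ppm in Nt5e-0 enterocytes (2.35). For both genes the ranges did not overlap. Alpi, the intestinal alkaline phosphatase, was higher by 1.18 against all Nt5e-0 enterocytes, but was not called without set 7 (0.996) or after matching on detected genes (0.91). It helped choose the mature Nt5e-0 enterocytes, so its difference against them (0.37) could not be called. The other concentrative nucleoside transporters were lower, Slc28a1 at -2.05 and Slc28a3 at -2.54, and with Nt5e-0 enterocytes matched on detected genes they were at -1.78 and -1.47 and no longer called. Also lower were Adk, the kinase that returns adenosine to AMP (-1.45), the ADP receptor gene P2ry1 (-1.63), Entpd5 (-1.13) and Nt5c (-1.05). After matching on detected genes Entpd5 (-0.95) and Nt5c (-0.63) were not called, and Nt5c was not called after matching on regional score (-0.96). Pnp, which acts on inosine after adenosine deaminase, was not called (139.6 ppm in villus tip cells and 115 ppm in Nt5e-0 enterocytes, 0.28), nor was Xdh (0.73). The adenosine receptor genes did not reach the minimum level. Outside this list, the leading genes included Slc23a4, known in the rat as a nucleobase transporter, which had 628, 684 and 880 ppm in villus tip cells, against 21.3, 48.8 and 76.1 ppm in Nt5e-0 enterocytes (3.82).

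Immediate early genes, which respond quickly to growth factors and stress, stood well above the median of all genes. Of 17 at the minimum level, 11 were higher and 1 was lower, with a median of 1.69. Atf3 had 274, 298 and 388 ppm in villus tip cells, against 22.1, 51.9 and 68.4 ppm in Nt5e-0 enterocytes (log2 difference 2.62), with no overlap. Klf6 (2.54), Fosl2 (2.19) and Jun (2.06) followed, and Jun and Fos encode parts of AP-1. The heat shock gene Hspa1b was lower (-1.03), and Egr1 (-0.05) and Hspa1a (-0.68) were not called. Hspa1b lost its call after matching on detected genes (-0.65) and on regional score (-0.84). The same numbers of genes, 11 and 1 of 17, were called against the mature Nt5e-0 enterocytes.

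In the EGF receptor list, 4 of 8 genes were higher, namely Egfr, the ligand gene Hbegf (2.08), the feedback inhibitor gene Errfi1 (1.49, and 0.97 matched on detected genes) and Erbb3 (1.15, and 0.75 and 0.78 matched on detected genes and on regional score). Lrig1, a crypt-expressed inhibitor of the receptor, was lower (-2.44), and against the mature Nt5e-0 enterocytes it was not called (-0.55). In the BMP list, 2 of 14 were higher and 2 lower. Bmp8b (2.47) and Smad7, an inhibitor of the pathway (1.62, and 0.70 and 0.77 matched on detected genes and on regional score), were higher, and Bmp3 (-2.59) and Smad6 (-1.12) were lower. Smad6 was not called without set 3 (-0.98) or set 6 (-0.86), and after matching on detected genes neither Smad6 (-1.57) nor Bmp3 (-1.74) was called. Bmp8a, outside the list, had 64.4, 158 and 182 ppm in villus tip cells, against 3.20, 13.0 and 19.6 ppm in Nt5e-0 enterocytes (3.65). The target genes Id1, Id2 and Id3 were not called (0.62, -0.57 and 0.29).

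Genes of cell junctions made up the list with the most genes called higher. Of 24 at the minimum level, 17 were higher and 1 was lower, with a median of 1.28, and against the mature Nt5e-0 enterocytes 16 were higher and 1 was lower. Cldn4, a claudin of tight junctions, had 178, 304 and 409.8 ppm in villus tip cells, against 3.53, 13.3 and 31.2 ppm in Nt5e-0 enterocytes (log2 difference 4.27). It had a value in 52.4% of villus tip cells, in 4.61% of Nt5e-0 enterocytes and in 1.53% of cycling cells. The ranges did not overlap. The adhesion gene Ceacam20 (2.19), the desmosome gene Dsp (1.81) and Cldn23 (1.81) were higher, as were Ocln (1.48) and Epcam (1.46), which encodes the surface protein used in the sort and was not called after matching on detected genes (0.93). Cldn2, a pore-forming claudin of the crypt, was lower (-2.29). The laminin gene Lama3 (3.21), in no list and named after its value was seen, was higher too.

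Brush border and keratin genes were higher in 11 of 19 cases and lower in 1, with a median of 1.06. Krt20, a keratin of differentiated enterocytes, had 2017, 2729 and 3183 ppm in villus tip cells, against 211, 643 and 952 ppm in Nt5e-0 enterocytes (log2 difference 2.26), with no overlap. Cdhr2, a cadherin that links microvilli (1.79, and 0.87 and 0.99 matched on detected genes and on regional score), Eps8, which caps actin (1.75), and Tmsb10, which binds actin monomers (1.5), were higher. Krt19 was lower (-1.32, and -0.93 and not called matched on detected genes). Villin (Vil1) was not called (0.62).

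Absorption genes divided by nutrient. Of 20 lipid genes, 8 were higher and 2 lower, with a median of 0.49. Acsl3, an acyl-CoA synthetase, had 322, 417 and 483 ppm in villus tip cells, against 38.9, 51.1 and 57.5 ppm in Nt5e-0 enterocytes (log2 difference 3.04), and Apob was higher by 2.11. Utp14b is annotated inside the span of Acsl3 on the same strand, and no source used here says how reads of overlapping genes were divided, so the Acsl3 value is uncertain. Fabp1, which binds fatty acids in the cytosol, had 748, 1473 and 2099 ppm in villus tip cells, against 3104, 7309.5 and 11504 ppm in Nt5e-0 enterocytes (-2.14), with no overlap. The lipid droplet gene Plin2 was also lower (-1.44, and -0.73 and not called matched on detected genes). Against the mature Nt5e-0 enterocytes, 2 of 16 lipid genes were higher (Acsl3 and Creb3l3) and 6 lower. The mature enterocyte genes, Apob among them, chose those cells and could not be called there.

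Of 13 carbohydrate genes, 0 were higher and 9 lower, with a median of -1.13. Slc2a2, the glucose and fructose exit transporter GLUT2, had 0, 14.4 and 45.7 ppm in villus tip cells, against 29.4, 157 and 291 ppm in Nt5e-0 enterocytes (log2 difference -3.02). Sis, sucrase-isomaltase, had 180.4, 329 and 495 ppm in villus tip cells, against 462, 1414 and 1938 ppm in Nt5e-0 enterocytes (-2.0). In both genes the ranges overlap at 1 end. Fbp1 (-2.56), the fructose transporter gene Slc2a5 (-2.14) and the glucose cotransporter gene Slc5a1 (-1.13) were lower, and Slc2a5 was higher in set 2 (0.26), which has too few villus tip cells to enter the rule. After matching on detected genes Fbp1 (-2.0), Slc2a5 (-1.72) and Slc5a1 (-1.41) were not called, and Fbp1 was not called after matching on regional score (-1.71). Against the mature Nt5e-0 enterocytes 10 of 12 were lower.

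Peptide and amino acid genes were mixed, with 2 higher and 3 lower of 21 and a median of -0.34. The peptide transporter gene Slc15a1 (1.15) and the neutral amino acid transporter gene Slc6a19 (1.2) were higher, and Slc1a1 (-2.88), Slc7a8 (-2.70) and Slc6a20a (-1.42) were lower. Slc6a19 lost its call without set 7 (0.988) and after matching on detected genes (0.19) or on regional score (0.32), and Slc15a1 lost its call after the same matching (0.22 and 0.32). Against the mature Nt5e-0 enterocytes 0 were higher and 11 lower of 18. Slc15a1 helped choose those cells and could not be called there. Of 8 iron, calcium and folate genes, 5 were lower, led by the calcium-binding S100g (-2.63, but -2.27 and -0.52 and not called with cells matched on detected genes and on regional score) and the iron exporter gene Slc40a1 (-1.91, and -1.35 and not called matched on regional score). Of 16 genes of fatty acid oxidation and ketogenesis, 8 were lower and 0 higher, with Angptl4 at -2.99 and the nuclear receptor gene Ppara at -2.32. Of 6 bile acid genes, 1 was called, Fabp6, the ileal bile acid binding protein (lower, -2.21), with a median of -0.96. Set against the mature cells, 4 of 6 bile acid genes were lower, with a median of -1.44.

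**Figure D3:**
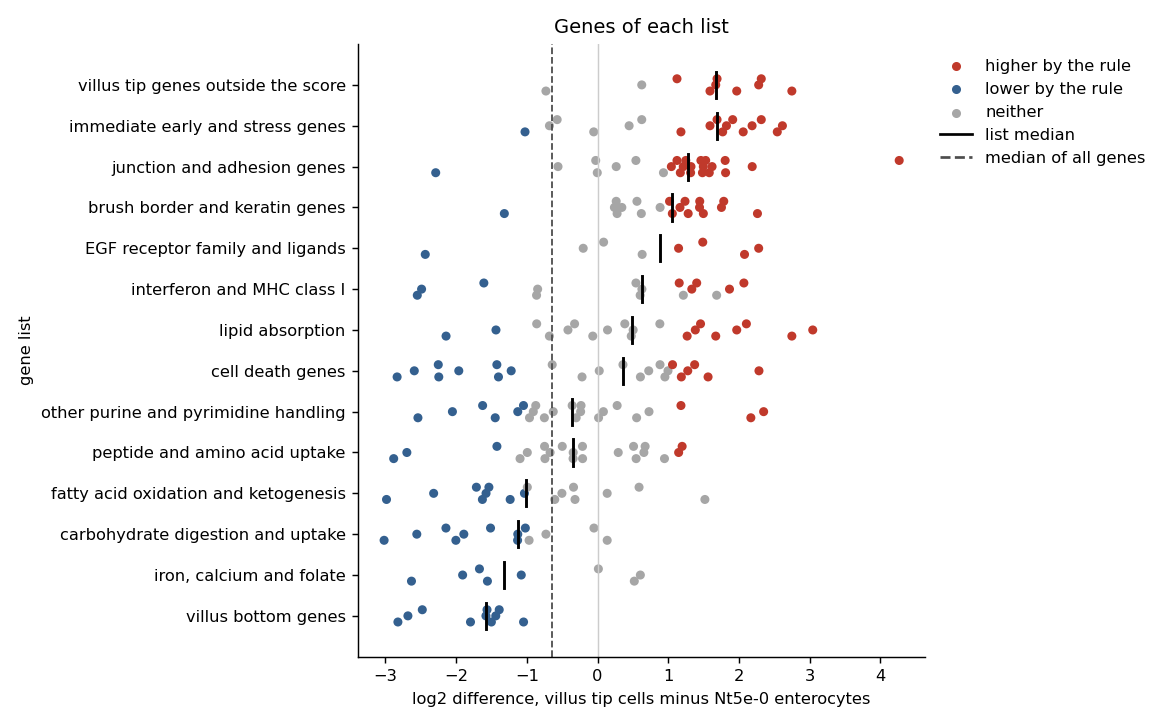
Log2 difference, villus tip cells minus Nt5e-0 enterocytes (x axis), of the genes of 14 lists (rows); each point is a gene, red where higher and blue where lower by the rule, black lines are list medians and the dashed line is the median of all genes, -0.65. The medians of the villus tip, immediate early and junction lists lie to the right of the dashed line, and those of the villus bottom, mineral and carbohydrate lists to its left.

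Cell death genes were called in both directions, 6 higher and 8 lower of 23, with a median of 0.36. Over all genes 7.89% were higher and 31.2% lower, so the number of lower genes is near that background. Casp6, which encodes a caspase, had 0, 7.39 and 24.2 ppm in villus tip cells, against 37.2, 82.4 and 99.0 ppm in Nt5e-0 enterocytes (log2 difference -2.84), with no overlap. Bcl2l15 (-2.59), the death ligand gene Tnfsf10 (-2.25), Casp1 (-1.96) and Bax (-1.40) were lower as well. Higher were Pmaip1, which encodes the pro-apoptotic protein NOXA (2.28), and the anti-apoptotic gene Mcl1 (1.56). Tnfrsf1a (1.37), Gsdme (1.28), the initiator caspase gene Casp8 (1.19) and Gsdmd (1.06) were higher too. After matching on detected genes Bax (-0.74), Casp1 (-1.37), Casp8 (0.61), Gsdmd (0.37) and Gsdme (0.41) were not called. After matching on regional score Casp8 (0.63), Gsdmd (0.36), Gsdme (0.51) and Tnfrsf1a (0.98) were not called.

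Among 28 enterocyte transcription factor genes, 8 were higher and 6 lower, against 7.89% and 31.2% of all genes. Prdm1, which encodes the repressor BLIMP1, had 82.4, 119.9 and 180.1 ppm in villus tip cells, against 1.76, 6.40 and 11.3 ppm in Nt5e-0 enterocytes (log2 difference 3.97). The sets did not overlap. Klf6, Klf4 and Creb3l3 were the next highest (values above), and Ppara (-2.32), Nr5a2, a nuclear receptor gene (-2.31), and Cdx2 (-1.07, and -0.95 and not called matched on detected genes) were lower. Hnf4a, a regulator of enterocyte genes, was not called (0.57).

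In the interferon and MHC class I list, 5 were higher and 3 lower of 15. For this and the next lists, 7.89% of all genes were higher and 31.2% lower. Apol7a (2.07), Irf7 (1.87) and the MHC class I gene H2-K1 (1.40) were higher, whereas Apol10a (-2.55) and the immunoproteasome genes Psmb9 (-2.49) and Psmb8 (-1.61) were lower. After matching on detected genes Irf7 (0.995), H2-K1 (0.72), Psmb9 (-1.72) and Psmb8 (-1.16) were not called, and H2-K1 was not called after matching on regional score (0.87). Of 4 inflammatory genes at the minimum level, the hydrogen peroxide forming oxidase gene Duox2 (2.51) and its maturation factor gene Duoxa2 (3.04) were higher and Nos2 was lower (-2.50). Duoxa2 had 7.05, 84.5 and 247 ppm in villus tip cells, against 2.07, 8.63 and 42.1 ppm in Nt5e-0 enterocytes, so that the ranges overlap. Of 14 drug metabolism genes 2 were higher, Cyp3a13 (1.74) and Ces2a (1.47, and 0.92 and 0.83 and not called matched on detected genes and on regional score), and 6 were lower, with the glutathione transferase gene Gstm3 lowest (-3.63). Of 7 retinoid genes, Bco1, the enzyme that splits beta-carotene, was higher (1.49, and 0.65 and 1.09 and not called matched on detected genes and on regional score), and Rdh7 (-2.84) and Aldh1a1 (-2.74) were lower. Of 13 cholesterol genes, the cholesterol uptake gene Npc1l1 was higher (1.74, and 0.84 and 0.94 matched on detected genes and on regional score), and Idi1 (-1.70) and Fdps (-1.27, and -0.92 matched) were lower.

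Outside the lists, the genes with a symbol that led the higher genes were Gprc5a (3.84), Slc23a4 (3.82), March3 (3.73), St3gal1 (3.67), Bmp8a (3.65), Capn2 (3.62) and Cemip (3.57). Gprc5a, an orphan receptor gene induced by retinoic acid, had 144, 205 and 261 ppm in villus tip cells, against 3.63, 14.2 and 21.9 ppm in Nt5e-0 enterocytes. March3 encodes a ubiquitin ligase, St3gal1 a sialyltransferase and Capn2 a calpain protease. At the other end were the antisense transcripts Sorbs2os (-5.03), Mecomos (-4.06), Far2os1 (-4.02) and Pard3bos1 (-3.83), whose reads cannot be told apart from those of their partner genes without a statement on strand. G0s2, an inhibitor of triglyceride breakdown (-3.81), the glucuronosyltransferase gene Ugt2b5 (-3.66), Ms4a18 (-3.65), Dph6, which acts in diphthamide synthesis (-3.58), and the lipid droplet gene Hsd17b13 (-3.57) were lower. G0s2, Ugt2b5 and Hsd17b13 were each at 0 ppm in villus tip cells in the median set, so the difference depends on the added 1 ppm. G0s2 was not called without set 4, 5, 6 or 8 (-4.30 to -3.53) and Hsd17b13 not without set 1, 5 or 6 (-4.36 to -3.29). After matching on detected genes Far2os1 (-3.57), G0s2 (-2.32), Ugt2b5 (-2.22) and Hsd17b13 (-2.36) were not called. After matching on regional score Mecomos (-3.06), Far2os1 (-3.29), G0s2 (-1.59), Ugt2b5 (-2.69) and Hsd17b13 (-2.66) were not called.

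Cells left out of the 800 but with Nt5e above 0 and both enterocyte genes, 581 in number, had levels between those of villus tip cells and Nt5e-0 enterocytes for 615 of the 630 higher genes and 2156 of the 2494 lower genes. Cldn4, for example, had 303 ppm in villus tip cells, 47.8 ppm in these cells and 14.8 ppm in Nt5e-0 enterocytes.

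A further 434 enterocytes had an Nt5e value of 0 but scored at least as high as the last villus tip cell, and their median score was 2.34. Set against these, 12 of 6562 genes were higher in villus tip cells (0.183%) and 12 were lower (0.183%), over 6 sets, with a median difference of -0.04, and 99% of genes differed by less than 1. Prdm1 was 113 ppm in villus tip cells and 64.4 ppm in these cells, and Cldn4 was 303 and 250.3 ppm. Fabp1 was 1597 ppm in villus tip cells and 1702 ppm in the high-scoring Nt5e-0 cells, against 7175 ppm in the other Nt5e-0 enterocytes. Named after their values were seen, Capn2, Plin2 and Reg1 were among the higher genes (1.13, 1.05 and 1.48) and Lct, lactase, among the lower (-1.01). Villus tip cells had a median of 1526.5 detected genes and the high-scoring Nt5e-0 cells 1369.5.

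**Figure D4:**
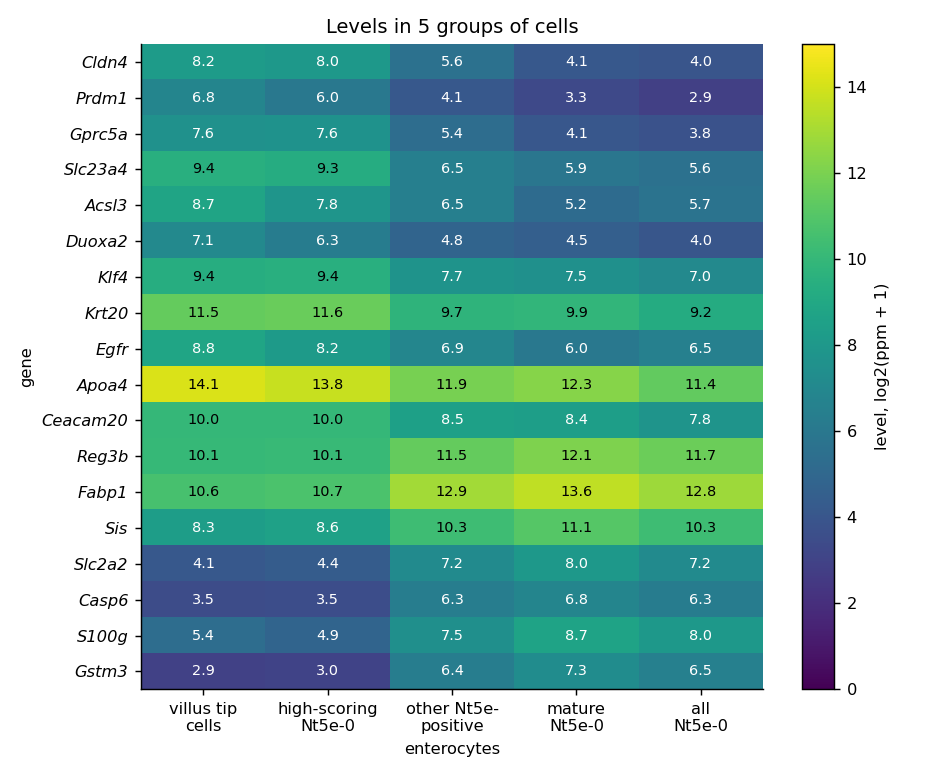
Levels, as log2(ppm + 1), of 18 genes (rows) in villus tip cells, high-scoring Nt5e-0 enterocytes, other Nt5e-positive enterocytes, mature Nt5e-0 enterocytes and all Nt5e-0 enterocytes (columns, left to right). Colour and printed number give the level; the high-scoring Nt5e-0 column is close to the villus tip column, and the other Nt5e-positive column lies between the first and the last columns for most rows.

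Position along the intestine was estimated by a regional score, the mean of 8 distal minus that of 8 proximal scoring genes. Its median was 0.635 in villus tip cells, against 0.169 in Nt5e-0 enterocytes and 0.302 in mature Nt5e-0 enterocytes. The 8 distal genes had a median log2 difference of 0.72 against Nt5e-0 enterocytes and -0.004 against mature ones. The 8 proximal genes had -1.21 and -2.07, so against mature cells the higher score went with low proximal genes. The ileal gene Fabp6 was lower in villus tip cells (-2.21). Whether the score gives position in these cells was not tested. When villus tip cells and Nt5e-0 enterocytes were divided together into 3 equal parts of the score within each set, 394 villus tip cells (49.2%) were in the distal part, 316 (39.5%) in the middle and 90 (11.2%) in the proximal part. The distal part held between 29.3% and 93.8% of the villus tip cells of a set and more than an equal share in 7 of 8 sets. The tissue segment of a cell was not used here, and with Nt5e-0 enterocytes matched on this score 380 genes were higher and 1454 lower.

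Within the villus tip cells, the distal part by the regional score (263 cells) was compared with the proximal part (269 cells). Of 6568 genes, 31 were higher in the distal part (0.472%) and 37 were lower (0.563%), with a median of -0.03. Slc10a2, the ileal bile acid uptake transporter, was 90.4 ppm in the distal, 28.4 in the middle and 8.16 in the proximal part (log2 difference 3.32). The bile acid binding gene Fabp6 was 1133 ppm in the distal and 318 ppm in the proximal part (1.83), and Slc51a, a subunit of the bile acid exporter, differed by 1.43. Also higher in the distal part were the peptidase genes Mep1a (1.86), Xpnpep2 (1.40) and Anpep (1.12), the drug exporter gene Abcb1a (1.63), Duoxa2 (1.39) and Gsdme (1.07).

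Onecut2, a regulator of the upper intestine, was 28.0 ppm in the distal and 111 ppm in the proximal part (-1.95), and Nr5a2 (-1.07) and Bco1 (-1.03) were also lower in the distal part. Outside the lists, Zfp385b (2.33), Vopp1 (1.67), Neu1 (1.61), Sowahb (1.59), Pdp2 (1.54) and Slc44a4 (1.53) led the higher genes, and Sephs2 (-2.02), Imp3 (-2.0), Zfp644 (-1.98), B4galt3 (-1.94), Rad51b (-1.90) and Jade3 (-1.77) the lower. These calls are few and changed by more than 1.5 times with several settings (below), and requiring 1 set fewer also adds calls. They were 47 and 56 without set 5 and 54 and 71 without set 7, with 54 higher genes without set 6 and 61 lower genes without set 4. The genes called also changed with the score: by the proximal scoring genes alone 3 of the 31 higher and 2 of the 37 lower genes were called again, by the distal ones alone 16 and 11, and with a cell filter 16 and 7. Of the genes named here, Fabp6 was called under each of these 3 settings. Slc10a2 (3.11 and not called by distal genes alone) and Jade3 were called by proximal genes alone and with the cell filter. Mep1a, Slc51a and Slc44a4 were called by distal genes alone and with the cell filter. By proximal genes alone the differences of Nr5a2 (0.44), Rad51b (1.14), Xpnpep2 (-0.50), Anpep (-0.18) and Pdp2 (-0.12) had the opposite sign. Zfp385b, Vopp1 and B4galt3 were not called after matching the parts on detected genes, nor were Sephs2 and Nr5a2. Of the scoring genes, Enpp3 was 594 ppm in the distal and 1168 ppm in the proximal part (-0.97, below 0 in all 8 sets). The others differed less, with Ada at -0.40, Nt5e at -0.17, Slc28a2 at -0.10, Clca4a at 0.20 and Ly6m at 0.23. Median detected genes were 1549 in the distal and 1517 in the proximal part.

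Markers of other cell types were examined because they can carry RNA from other cells or from 2 cells read as 1. Of 9 stem cell markers at the minimum level, 8 were lower in villus tip cells than in Nt5e-0 enterocytes, with a median of -1.70, and the median against mature Nt5e-0 enterocytes was 0.05. Of 9 cycling markers, 5 were lower (-1.31), with 0.06 against mature ones. The summed stem marker level was 691 to 2101 ppm over the sets in villus tip cells, against 1323 to 5664 ppm in Nt5e-0 enterocytes. Goblet markers were common in both groups, with 3 or more in 95.6% of villus tip cells and 91.0% of Nt5e-0 enterocytes, and 0 of 7 at the minimum level were called. The same held for Paneth markers (94.8% and 87.7%, 0 of 9 called). At least 3 T cell markers were found in 1 villus tip cell, and at least 3 red blood cell markers in 1. The hemoglobin gene Hbb-bs was 76.9 ppm in villus tip cells and 10.6 ppm in Nt5e-0 enterocytes, and Gzma was 25.5 and 6.31 ppm, neither called; in the median set both were at 0 in villus tip cells. Without cells that had T cell or red blood cell markers or a shared barcode, 780 cells remained and 625 genes were higher and 2456 lower.

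Cytoplasmic ribosomal protein genes were lower in 29 of 77 cases and higher in 0, with a median of -0.96, against 31.2% of all genes lower and a median of -0.65. None of the 77 was called against the mature Nt5e-0 enterocytes. Mitochondrially encoded genes were not called (13 genes, median -0.44). These 2 lists were chosen by name pattern after the data were seen.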

How the data were processed

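The measurement was droplet-based 3′ single-cell RNA sequencing of sorted mouse small intestinal epithelium. The build mm10 and Cell Ranger are named in the submitters' processing notes, and no source used here gives a version or a later step. The table the authors deposited (20090 genes, 27881 cells) held whole-number values that were treated as a score and not as counts, because the value 2 was more frequent than 1 in 25.3% of cells and cell totals spanned only 2764 to 9739. A description therefore took the place of the planned count test, thinning and doublet calling were not run, and the depth behind a value is unknown, so values carry no counting interval.

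For each group of cells the values were summed, scaled to ppm and compared as log2 differences with 1 ppm added, which understates differences of low genes. The 6 scoring genes, Fabp2 and Apoa1 were left out of the counts, as were the 10 mature enterocyte genes against mature cells and the 16 regional scoring genes between regions. Parts needed at least 10 cells per set. Of each list, up to 4 called genes with the largest difference were named, plus others where a count needed them (further list genes, such as Ocln, Vil1 and Hnf4a, were named after their values were seen), and outside the lists 12 and 12 (6 and 6 between regions). Members and lists were chosen with earlier results of these data known. Nothing says that barcode sets came from separate animals. The calling procedure was tested on simulated data. Python 3.11.15, numpy 2.4.6, pandas 2.3.3, scipy 1.17.1 and matplotlib 3.10.9 were used. Some genes that the naming rule covers are not reported here. Alternatives are given in the closing section.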

Additional observations from a re-analysis of the deposited data

Results flagged for a closer look

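Over the 8 barcode sets, 35 groups of 8 values were examined for a set far from the others (shares, scoring gene levels and list medians), and 4 were found; chance alone flags about 1 in 20 groups. In set 7, with 32 villus tip cells, the median log2 difference of the EGF receptor list was 1.57, against 0.53 to 0.987 in the other sets. The median of the mature enterocyte genes in set 7 was 1.98, against 0.178 to 0.918 in the other sets. In set 2, with 18 villus tip cells, the median of the retinoid genes was -2.78, against -1.39 to -0.263 elsewhere. The median of the mitochondrially encoded genes in set 2 was -1.57, against -0.696 to -0.0677 elsewhere. These are the 2 sets with the fewest villus tip cells.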

How the results depend on the processing

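No paired analysis was possible because the values come from no test; as a description, the mean of the differences within the barcode sets gave 579 higher and 2590 lower genes against Nt5e-0 enterocytes. Against Nt5e-0 enterocytes, the 630 higher and 2494 lower genes became 1308 and 860 when centred on the median of all genes, 350 and 972 after matching on detected genes, 380 and 1454 after matching on regional score, 312 and 53 with all Nt5e-positive cells, and 402 and 1578 against the other Nt5e-positive enterocytes. The lower genes were 4330 with no minimum level and 604 with a minimum of 50 ppm. Without 1 barcode set in turn, they were 571 to 659 higher and 2416 to 2663 lower.

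Against mature Nt5e-0 enterocytes, the 473 higher genes became 847 when centred and 301 matched on detected genes. The 1622 lower genes became 706 and 529 under these settings, 951 with a pseudocount of 10 ppm, 2788 with no minimum, 481 with 50 ppm, 1056 matched on regional score and 348 with all Nt5e-positive cells. When centred, 54.5% of the called genes were higher in place of 22.6%. Leaving out sets gave 462 to 494 higher and 1580 to 1782 lower.

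The regional counts were the least stable. The 31 higher genes became 20 with a pseudocount of 10 ppm, 14 with 50 ppm, 60 within sets, 57 with a cell filter, 19 by proximal and 72 by distal scoring genes alone, and 32 to 54 without 1 set. The 37 lower genes became 12, 6 and 58 under the first 3 of these, 88 by distal genes alone, 24 with parts matched on detected genes, and 39 to 71 without 1 set. The share of 2.87% became 1.43% with 400 cells and 5.55% with all Nt5e-positive cells; the larger planned choice of cells was not run, since only 1548 were Nt5e-positive. Among the genes followed over the settings against Nt5e-0 enterocytes, Gsta4, a glutathione transferase gene, alone changed direction. It went from -2.48 to 0.65 with all Nt5e-positive cells. The regional genes that changed sign by proximal scoring genes alone are named in the Results. The causes were not tested. The centred, all Nt5e-positive, shared barcode and high-scoring settings were chosen after seeing the data.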
